A study of Mus musculus with 6 samples.

Results

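The insulin-like growth factor (IGF) family was examined in mouse retina as 9 genes, namely the ligands Igf1 and Igf2, the receptors Igf1r and Igf2r, and the binding proteins Igfbp2, Igfbp3, Igfbp4, Igfbp5 and Igfbp7. They are the family members named for this description that the deposited gene table lists, 9 of 13072 listed protein-coding genes, and 15 of their transcripts are among the 26721 listed transcripts. The genes were selected on their FPKM in the 2 genotypes, with the difference between CTGF-/- and WT already known, so their differences are a description. The counts of these genes past a threshold, given further on beside those of all genes, support nothing. RNA sequencing was done on 3 libraries from CTGF-/- retinas, which according to the labels lack connective tissue growth factor by means of an inducible Cre/lox system, and on 3 libraries from wild-type (WT) retinas. Both groups are whole retinas of C57BL/6 mice at postnatal day 7. The labels name neither the promoter that drives Cre nor the inducing agent, and say nothing on whether each library is a separate animal, so a p-value here reflects how far the libraries vary, which may be technical.

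IGF1 and IGF2 are secreted ligands that signal mainly through the tyrosine kinase receptor IGF1R. IGF2R, which also sorts mannose 6-phosphate tagged lysosomal enzymes, takes up IGF2 and delivers it to lysosomes. IGF binding proteins hold the ligands in the extracellular space and release them when proteases cut them, and connective tissue growth factor carries a domain at its amino terminus that resembles theirs. Igf2 and Igf2r are imprinted in the mouse, with Igf2 expressed from the paternal and Igf2r from the maternal copy in most tissues. In the newborn mouse retina the IGF axis is known for its part in vessel growth.

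Values are FPKM (fragments per kilobase of transcript, scaled to the library's mapped total), a level per length. Library totals of gene FPKM were 217674, 230474 and 229650 in CTGF-/- 1, 2 and 3, and 214941, 208436 and 216436 in WT 1, 2 and 3, so the totals did not overlap. CTGF-/- 2 stood apart in the transcript table, where 1875 entries were 0, against 716 to 861 elsewhere. The targeted gene Ctgf was weakly expressed, at 0.587, 1 and 0.526 FPKM in CTGF-/- 1, 2 and 3 and 0.932, 0.777 and 1.51 FPKM in WT 1, 2 and 3. The CTGF-/- and WT values overlapped, and the log2 difference of Ctgf was -0.28 (SE 0.17, adjusted p = 0.571 by limma), so Ctgf RNA does not set the labelled genotypes apart. Which exons were removed is not stated by the labels. Its relative Cyr61, a matricellular protein with the same kind of domain, differed by -0.085 (adjusted p = 0.785 by limma).

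Igf2 had the widest spread of the family and the largest difference between the genotypes. It read 24.9, 15.5 and 10.3 FPKM in CTGF-/- 1, 2 and 3, and 4.65, 13.1 and 4.9 FPKM in WT 1, 2 and 3. The 2 highest libraries were CTGF-/- 1 and 2, and the 2 lowest were WT 1 and 3. WT 2 lay above CTGF-/- 3, so the groups overlapped. The means were 16.9 ± 7.4 FPKM in CTGF-/- and 7.55 ± 4.8 FPKM in WT (SD, n = 3 each), a ratio of 2.24. On the log2(FPKM + 1) scale used for all differences here the CTGF-/- minus WT difference was 1.12 (SE 0.41). That scale understates the changes of weakly expressed genes. Leaving out 1 library at a time gave 0.81 to 1.55, the lowest without CTGF-/- 1 and the highest without WT 2. Of the 12915 genes tested, 46 (0.356%), Igf2 included, had an absolute difference of at least this size, while the middle 95% of all genes lay between -0.38 and 0.37. The 46 include all 15 markers of lens, which is not retina, at differences of 1.20 to 5.02. In whole retina, a change in the number of cells that express a gene and a change in its RNA per cell cannot be told apart. The gene lies on chromosome 7, 142650766 to 142666816, minus strand, of GRCm38, and shares its locus with the protein-coding gene Gm49394 and the microRNA gene Mir483 on the same strand and with the antisense gene Igf2os. Library preparation marked the strand, but whether the counting used it is not given in the sources used here, so reads of overlapping genes may not have been told apart.

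**Figure D1:**
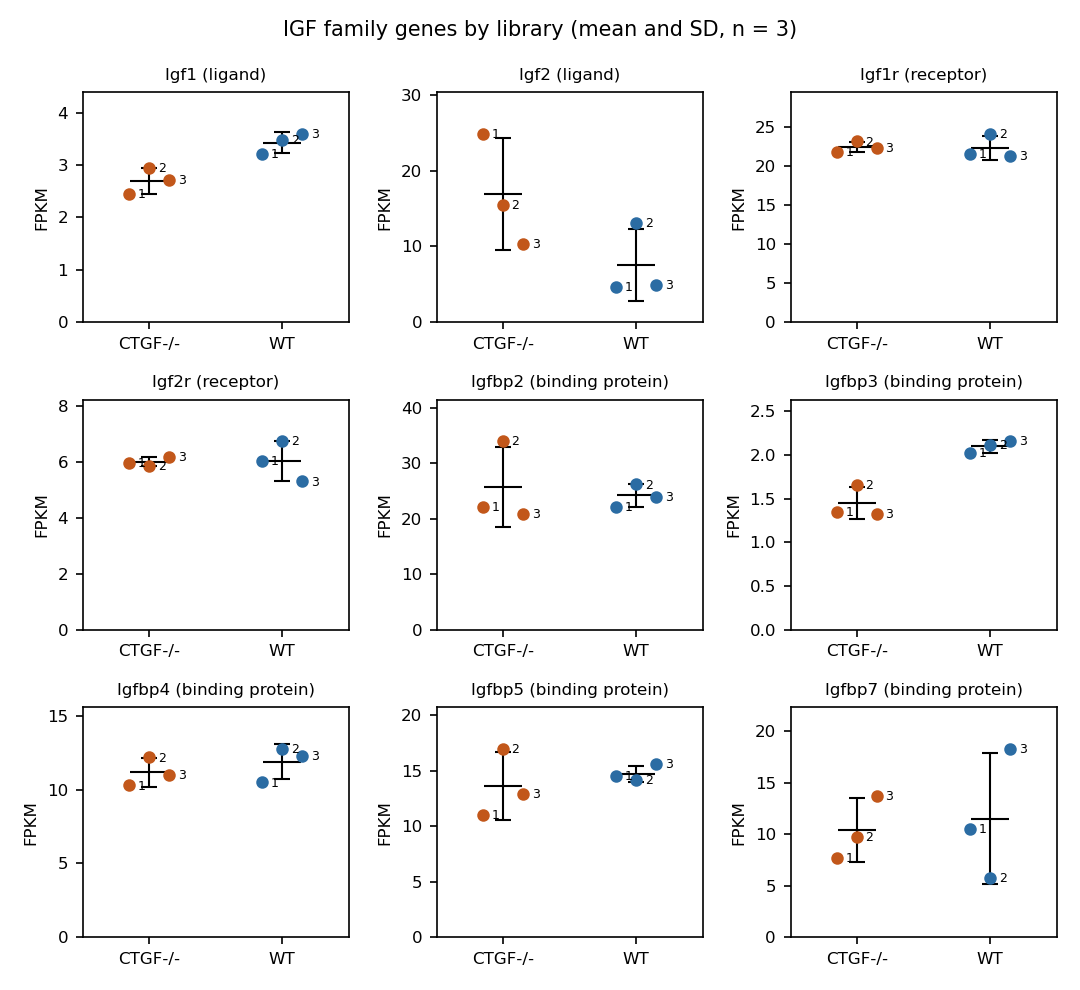
Gene FPKM (vertical axes, from 0) of the 9 genes in the 3 CTGF-/- libraries (orange, left) and the 3 WT libraries (blue, right), numbered by library, with the group mean and SD. Igf1 and Igfbp3 are lower in every CTGF-/- library than in any WT library, and Igf2 spreads from 4.65 to 24.9 FPKM with WT 2 above CTGF-/- 3.

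The 4 listed Igf2 transcripts differ in where they start. Igf2-204 begins furthest upstream at position 142661305, Igf2-205 at 142659489, Igf2-201 at 142657496 and Igf2-202 at 142657466. Igf2-201, Igf2-202 and Igf2-204 share the same coding exons in the GENCODE M21 annotation, with a coding length of 540 bases, and differ in their untranslated exons. Igf2-205 has 1 more coding exon and a coding length of 573 bases.

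RefSeq (GRCm38.p6) gives a start close to those of Igf2-204 and Igf2-201. The bases before these starts are shown because the levels of these transcripts varied widely between libraries. The Igf2-204 window is chr7:142661306-142661521 and the Igf2-201 window is chr7:142657497-142657746, both on the minus strand and printed 5′ to 3′ up to the base before the transcript. Capitals mark GGGCGG, the GC box bound by Sp1 family factors, and GGAATG, the core bound by TEAD factors, each searched on both strands (CCGCCC and CATTCC on the other strand).
Igf2-204: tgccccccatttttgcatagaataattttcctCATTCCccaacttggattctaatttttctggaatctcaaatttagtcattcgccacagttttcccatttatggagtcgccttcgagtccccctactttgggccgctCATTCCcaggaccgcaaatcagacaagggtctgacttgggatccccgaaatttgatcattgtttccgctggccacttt
Igf2-201: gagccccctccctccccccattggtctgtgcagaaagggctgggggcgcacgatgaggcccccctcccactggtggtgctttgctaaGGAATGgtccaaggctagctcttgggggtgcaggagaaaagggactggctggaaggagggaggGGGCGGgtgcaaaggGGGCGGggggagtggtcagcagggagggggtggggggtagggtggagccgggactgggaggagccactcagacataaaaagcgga
The Igf2-204 window holds GGAATG in its reverse form at 2 places, and the Igf2-201 window holds GGGCGG at 2 places and GGAATG at 1. Of the 4 RefSeq windows of Igf2, each 250 bases long, 3 hold GGAATG, against 12.6% of all 32851 RefSeq windows of this length. Over the 13 windows of the 9 genes GGAATG is in 4, the remaining one being that of Igfbp5. GGGCGG is in 32.7% of all windows and in 6 of the 13 windows of the 9 genes. TATAAA, the TATA box, is in 12.4% of all windows and in 1 of the 13. A match shows only that these letters stand in the window. The RefSeq start nearest to that of Igf2-205 lies 685 bases inside it, so no window is shown for it.

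Igf2-205 was the most abundant transcript in 4 of the 6 libraries. It read 9.12, 14.2 and 9.55 FPKM in CTGF-/- 1, 2 and 3 and 2.82, 9.09 and 2.57 FPKM in WT 1, 2 and 3. Every CTGF-/- library was above every WT library, but CTGF-/- 1 and WT 2 were nearly equal. The means were 11 ± 2.84 FPKM in CTGF-/- and 4.83 ± 3.7 FPKM in WT, and the log2 difference was 1.19 (SE 0.44). Igf2-204 read 18.4, 2.74 and 1.89 FPKM in CTGF-/- 1, 2 and 3, and 0.332, 5.03 and 1.21 FPKM in WT 1, 2 and 3. CTGF-/- 1 was far above all other libraries for this transcript, and the remaining CTGF-/- libraries lay within the WT range. Igf2-201 read 6.98, 0.669 and 1.14 FPKM in CTGF-/- 1, 2 and 3, and 1.13, 1.47 and 0.0451 FPKM in WT 1, 2 and 3, again with CTGF-/- 1 highest. Igf2-202 was listed at 0 in 5 libraries and at 3.08 FPKM in WT 3.

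The share of Igf2-205 in the summed listed Igf2 transcripts was 26.4%, 80.7% and 76% in CTGF-/- 1, 2 and 3, and 65.9%, 58.3% and 37.2% in WT 1, 2 and 3. Igf2-204 took 53.4%, 15.5% and 15% in CTGF-/- 1, 2 and 3, and 7.76%, 32.3% and 17.5% in WT 1, 2 and 3. The makeup of Igf2 RNA therefore differed as much within a genotype as between them, with CTGF-/- 1 built mainly on Igf2-204 and the other CTGF-/- libraries on Igf2-205. The summed transcripts read 34.5, 17.7 and 12.6 FPKM in CTGF-/- 1, 2 and 3, and 4.27, 15.6 and 6.91 FPKM in WT 1, 2 and 3, and do not equal the gene values. StringTie divides reads of shared exons between transcripts by estimation, and the 3 transcripts that share all coding exons differ only in untranslated sequence. The error of that division was not tested.

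**Figure D2:**
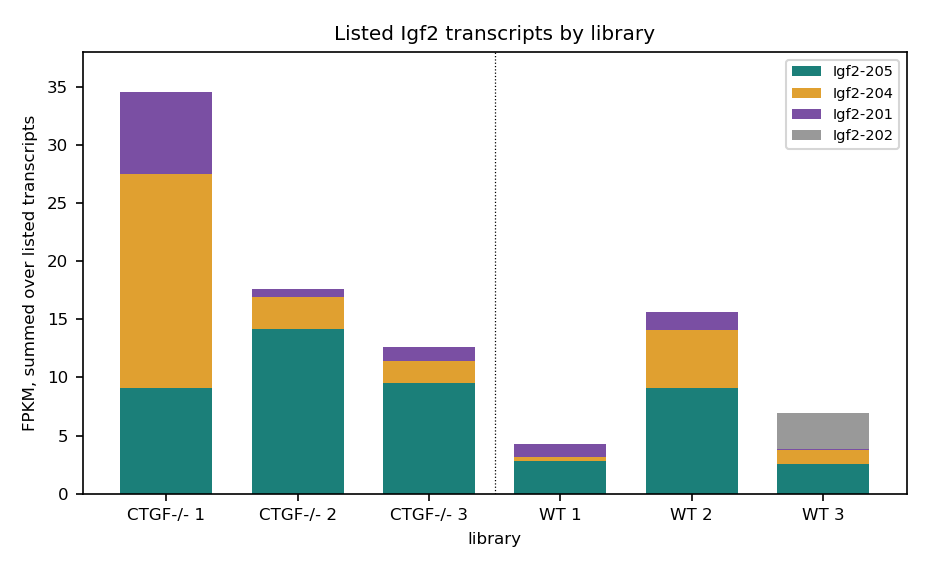
FPKM of the 4 listed Igf2 transcripts stacked by library, CTGF-/- 1 to 3 left of WT 1 to 3. Igf2-205 makes up 80.7% and 76% of the bars of CTGF-/- 2 and 3, whereas Igf2-204 is the largest part (53.4%) of the tall bar of CTGF-/- 1, and Igf2-202 appears only in WT 3.

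Igf1, the ligand that mediates most actions of growth hormone, was lower in CTGF-/- retinas. It read 2.45, 2.94 and 2.71 FPKM in CTGF-/- 1, 2 and 3 and 3.22, 3.48 and 3.6 FPKM in WT 1, 2 and 3, with no overlap. The means were 2.7 ± 0.244 FPKM in CTGF-/- and 3.43 ± 0.192 FPKM in WT, a ratio of 0.786, and the log2 difference was -0.26 (SE 0.094). Its main transcript Igf1-202 also did not overlap, at 3.23, 3.86 and 3.69 FPKM in CTGF-/- 1, 2 and 3 and 4.24, 4.6 and 4.87 FPKM in WT 1, 2 and 3. The shorter Igf1-206 was listed at 0.233 FPKM in CTGF-/- 1 and at 0 in CTGF-/- 2 and 3, and read 1.14 FPKM in WT 1, 0.376 FPKM in WT 2 and 0 in WT 3. The gene lies on chromosome 10, 87858265 to 87937042, plus strand, with the antisense gene Igf1os across it.

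The ligands differed in opposite directions. Igf2 exceeded Igf1 in every library, by a ratio of 10.2, 5.29 and 3.8 in CTGF-/- 1, 2 and 3 and 1.44, 3.77 and 1.36 in WT 1, 2 and 3. CTGF-/- 3 and WT 2 were almost equal in this ratio. The sum of both ligands was 27.3, 18.5 and 13 FPKM in CTGF-/- 1, 2 and 3, and 7.88, 16.6 and 8.5 FPKM in WT 1, 2 and 3, with WT 2 above CTGF-/- 3.

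Both receptors were at nearly the same level in the genotypes. Igf1r, the signalling receptor, read 21.8, 23.1 and 22.3 FPKM in CTGF-/- 1, 2 and 3, and 21.5, 24.1 and 21.3 FPKM in WT 1, 2 and 3, and its log2 difference was 0.0081 (SE 0.08). Igf2r, which clears IGF2, read 5.96, 5.84 and 6.16 FPKM in CTGF-/- 1, 2 and 3, and 6.01, 6.73 and 5.29 FPKM in WT 1, 2 and 3. The Igf2r values of CTGF-/- all lay inside the WT range, and the means were 5.99 ± 0.162 FPKM in CTGF-/- and 6.01 ± 0.72 FPKM in WT. Across the 6 libraries Igf2r varied little while Igf2 varied by 5.35 times between its lowest and highest library. Igf1r lies on chromosome 7, 67952827 to 68233668, plus strand. Igf2r lies on chromosome 17, 12682406 to 12769664, minus strand, where the imprinted antisense gene Airn overlaps it.

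Igfbp3, which in blood carries most of the IGF1 and which also acts on vessels of the retina, was the binding protein with the largest difference. It read 1.35, 1.66 and 1.33 FPKM in CTGF-/- 1, 2 and 3 and 2.02, 2.12 and 2.16 FPKM in WT 1, 2 and 3. The groups did not overlap, and the WT libraries were close together. The means were 1.45 ± 0.183 FPKM in CTGF-/- and 2.1 ± 0.0737 FPKM in WT, a ratio of 0.69. The log2 difference of Igfbp3 was -0.34 (SE 0.10) with the pseudocount of 1, and -0.54 with one of 0.01, since the gene is weakly expressed. It made up 2.58%, 2.22% and 2.23% of the summed binding protein FPKM in CTGF-/- 1, 2 and 3 and 3.38%, 3.47% and 2.99% in WT 1, 2 and 3, so its share was also lower in every CTGF-/- library. Igfbp3 lies on chromosome 11, 7206086 to 7213923, minus strand, and has 1 listed transcript.

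The abundant binding proteins overlapped between the groups. Igfbp2, the highest of the 9 genes, read 22.1, 34 and 20.9 FPKM in CTGF-/- 1, 2 and 3 and 22.2, 26.2 and 24 FPKM in WT 1, 2 and 3. CTGF-/- 2 was above all others, and the remaining CTGF-/- libraries lay just below the WT range. The log2 difference of Igfbp2 was 0.056 (SE 0.18), and without CTGF-/- 2 it was -0.16. Igfbp4, which is cut by the protease PAPP-A to release its ligand, read 10.3 to 12.2 FPKM in CTGF-/- and 10.5 to 12.8 FPKM in WT, with a difference of -0.078 (SE 0.10). Igfbp5, which binds matrix as well as ligand, read 11, 17 and 12.9 FPKM in CTGF-/- 1, 2 and 3 and 14.5, 14.2 and 15.6 FPKM in WT 1, 2 and 3, with CTGF-/- 2 above and the other CTGF-/- libraries below all WT libraries (difference -0.13, SE 0.15).

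Igfbp7, a secreted relative with low affinity for IGF that is made by vessel cells, differed most within the WT group. It read 7.7, 9.71 and 13.7 FPKM in CTGF-/- 1, 2 and 3 and 10.5, 5.73 and 18.3 FPKM in WT 1, 2 and 3. WT held both the lowest and the highest library, and the log2 difference was -0.04 (SE 0.37), from -0.42 without WT 2 to 0.34 without WT 3. In the transcript table Igfbp7-201 was almost the sole form except in WT 2, where Igfbp7-202 at 2.49 FPKM took 41.3% of the listed Igfbp7 transcripts. Igfbp2, Igfbp4, Igfbp5 and Igfbp7 lie on chromosome 1 (72824503 to 72852474, plus strand), chromosome 11 (99041244 to 99054392, plus strand), chromosome 1 (72857932 to 72874884, minus strand) and chromosome 5 (77349240 to 77408041, minus strand). Igfbp2 and Igfbp5 are neighbours whose 3′ ends face each other, and both were highest in CTGF-/- 2.

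The high Igfbp2 value of CTGF-/- 2 came with more of a short transcript. Igfbp2-202 read 3.14, 13.7 and 1.84 FPKM in CTGF-/- 1, 2 and 3 and 1.84, 0.657 and 1.7 FPKM in WT 1, 2 and 3. Its share of the listed Igfbp2 transcripts was 26.9% in CTGF-/- 2, and 9.86% and 6.16% in CTGF-/- 1 and 3, against 5.82%, 1.8% and 4.96% in WT 1, 2 and 3. The full-length Igfbp2-201 read 28.7, 37.3 and 28 FPKM in CTGF-/- 1, 2 and 3 and 29.8, 35.9 and 32.5 FPKM in WT 1, 2 and 3, with overlap. Igfbp2-202 starts at position 72825322, has a coding length of 474 bases against 915 for Igfbp2-201, and begins its coding sequence in a later exon.

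The bases before both Igfbp2 starts are shown because the short form has its own start. Both come from RefSeq windows of GRCm38.p6 on the plus strand, with the same motifs in capitals. They are chr1:72824230-72824479 for Igfbp2-201 and chr1:72825137-72825321 for Igfbp2-202. The first ends before the RefSeq start, which lies 23 bases upstream of the start of Igfbp2-201. The second was cut by 65 bases to end at the base before Igfbp2-202.
Igfbp2-201: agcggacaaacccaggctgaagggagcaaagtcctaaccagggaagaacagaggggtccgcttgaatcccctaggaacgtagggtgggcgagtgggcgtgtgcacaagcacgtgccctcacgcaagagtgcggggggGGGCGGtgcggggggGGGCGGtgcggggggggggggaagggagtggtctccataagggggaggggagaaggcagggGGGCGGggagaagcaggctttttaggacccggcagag
Igfbp2-202: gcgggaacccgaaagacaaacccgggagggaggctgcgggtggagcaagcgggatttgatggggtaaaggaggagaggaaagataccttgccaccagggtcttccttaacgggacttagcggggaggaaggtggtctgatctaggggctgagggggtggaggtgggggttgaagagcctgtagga
The Igfbp2-201 window holds GGGCGG at 3 places and the Igfbp2-202 window holds none of the 3 motifs searched, which says only that these letters are not in it.

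Summed over the 5 binding proteins, the level was 52.4, 74.5 and 59.9 FPKM in CTGF-/- 1, 2 and 3, and 59.7, 61 and 72.3 FPKM in WT 1, 2 and 3. CTGF-/- held both the lowest and the highest sum, and the means were 62.3 ± 11.3 FPKM in CTGF-/- and 64.3 ± 6.89 FPKM in WT. Because the ligand sum was higher and the binding protein sum was similar, the ratio of binding protein to ligand FPKM was 1.92, 4.03 and 4.61 in CTGF-/- 1, 2 and 3, and 7.59, 3.68 and 8.5 in WT 1, 2 and 3. CTGF-/- 1 was lowest and WT 1 and 3 were well above the rest, while WT 2 lay among the CTGF-/- libraries.

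Averaged over all 6 libraries, the order of levels was Igfbp2 at 24.9 FPKM, Igf1r at 22.4, Igfbp5 at 14.2, Igf2 at 12.2, Igfbp4 at 11.5, Igfbp7 at 10.9, Igf2r at 6, Igf1 at 3.07 and Igfbp3 at 1.77 FPKM. Neighbours in this order overlapped in their range over the libraries except at 3 steps, between Igf1r and Igfbp5, between Igf2r and Igf1 and between Igf1 and Igfbp3. CTGF-/- 2 was the highest CTGF-/- library for 6 of the 9 genes.

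**Figure D3:**
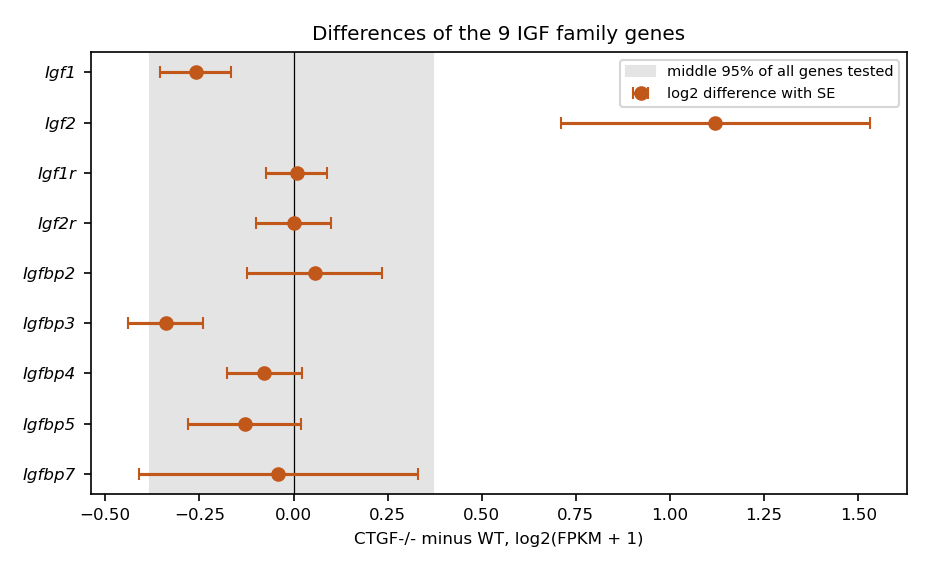
CTGF-/- minus WT difference of each gene in log2(FPKM + 1) with its standard error, over the range that holds the middle 95% of all genes tested (grey, -0.38 to 0.37). Igf2 alone lies outside that range, at 1.12, and Igfbp3 at -0.34 and Igf1 at -0.26 are the lowest.

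None of the 9 genes passed an adjusted p of 0.05 in the limma test over all 12915 genes, of which 6 (0.0465%) did. At an unadjusted p under 0.05 the count was 3 of 9, against 9.32% of all genes (3.83% higher and 5.49% lower in CTGF-/-). The groups did not overlap for 2 of 9, both lower in CTGF-/-, against 18.5% of all genes in either direction and 10.9% with CTGF-/- lower. The difference was negative for 6 of 9, against 55.1% of all genes, and the median was -0.04 for the 9 genes and -0.022 for all genes. Since the difference chose the members, nothing is read from these counts. Among 13 member transcripts tested, 0 passed the adjusted threshold (0.0239% of 25082 transcripts), 1 had an unadjusted p under 0.05 (5.05%) and 3 did not overlap (13.4%). The authors' deposited table of higher and lower genes holds none of the 9 genes. It has 16 higher and 14 lower genes, few beside the 13072 listed. Their deposited table of higher and lower transcripts, with 194 higher and 263 lower, holds none of the 15 transcripts. With lists this short, nothing is read from these absences.

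Genes around the family were examined in 5 lists of genes that are not members, and none passed an adjusted p of 0.05 in the limma test. The lists share genes, so their counts are not separate. Grb10 is in the signalling and imprinted lists, and Ctsd in the protease, sorting and imprinted lists. Of 11 further family genes 5 were listed, all tested, with 2 higher and 3 lower and 0 at an unadjusted p under 0.05. Insr, the insulin receptor, read 9.88, 4.22 and 8.14 FPKM in CTGF-/- 1, 2 and 3, and 11.4, 9.94 and 9.25 FPKM in WT 1, 2 and 3. CTGF-/- 2 was far below the rest, and the log2 difference was -0.47 (SE 0.25, adjusted p = 0.554 by limma), or -0.16 without CTGF-/- 2. Igf2bp3 and Igf2bp1, RNA-binding proteins that bind Igf2 mRNA, differed by -0.14 and -0.075 with overlap. Igfbp1, Igfbp6, Igfals, Insrr, Ins1 and Ins2 are not in the gene table used here and were not analysed.

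Of 44 genes of IGF and insulin receptor signalling 43 were tested, 19 higher and 24 lower with a median of -0.023, close to the median of all genes. At an unadjusted p under 0.05 there were 7 of 43, 1 higher and 6 lower, against 9.32% of all genes (3.83% higher and 5.49% lower). The largest difference was in Grb2, the adaptor that links receptors to Ras, at 27, 19.3 and 30.4 FPKM in CTGF-/- 1, 2 and 3, and 14.8, 16.2 and 15.1 FPKM in WT 1, 2 and 3. Every CTGF-/- library was above every WT library, with a log2 difference of 0.67 (SE 0.16, adjusted p = 0.533 by limma). Gsk3b, a kinase inhibited downstream of AKT, averaged 29.2 ± 2.42 FPKM in CTGF-/- and 36.4 ± 1.61 FPKM in WT (difference -0.31, adjusted p = 0.533 by limma). Braf, a kinase of the MAPK cascade, differed by -0.29, and Pik3r1, the regulatory subunit of PI3 kinase and the most abundant gene of the list, by -0.21. Gsk3b, Braf and Pik3r1 also did not overlap between the groups. In this list 13 of 43 genes did not overlap, 9 of them lower, against 18.5% and 10.9% of all genes.

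Of 24 IGFBP proteases, their inhibitors and binding partners 21 were tested, 6 higher and 15 lower with a median of -0.10. Among all genes 55.1% had a negative difference, and the median was -0.022. At an unadjusted p under 0.05 there were 5 of 21, 1 higher and 4 lower, against 9.32% of all genes (3.83% higher and 5.49% lower). Itgb1, the beta 1 integrin, averaged 27.5 ± 0.791 FPKM in CTGF-/- and 33.4 ± 0.924 FPKM in WT without overlap (difference -0.27, SE 0.07, adjusted p = 0.533 by limma). Adam12, a metalloprotease that cuts IGFBP3 and IGFBP5 in humans, averaged 1.68 ± 0.166 FPKM in CTGF-/- and 2.36 ± 0.317 FPKM in WT (difference -0.32), and Adam10 differed by -0.32. The most abundant gene of the list, the lysosomal protease Ctsd, was at 112, 126 and 110 FPKM in CTGF-/- 1, 2 and 3, and 105, 95.5 and 102 FPKM in WT 1, 2 and 3, a difference of 0.20 (SE 0.087, adjusted p = 0.533 by limma).

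Of 23 genes of mannose 6-phosphate sorting, all tested, 15 were higher and 8 lower with a median of 0.069. For all genes the median was -0.022, and 55.1% had a negative difference. An unadjusted p under 0.05 was found for 2 of 23, against 9.32% of all genes. Gnptab, which makes the mannose 6-phosphate tag, averaged 5.8 ± 0.823 FPKM in CTGF-/- and 7.45 ± 0.312 FPKM in WT (difference -0.32), and Gga1, an adaptor that sorts tagged cargo, averaged 21.6 ± 4.2 FPKM in CTGF-/- and 16.9 ± 0.874 FPKM in WT (difference 0.32). Psap, the most abundant gene of the list and a precursor of lysosomal activators, differed by 0.11, and by -0.02 after quantile normalisation. Of 30 imprinted growth genes and neighbours of Igf2 on chromosome 7, 17 were tested, 12 higher and 5 lower with a median of 0.052. An unadjusted p under 0.05 was found for 2 of 17, against 9.32% of all genes. Grb10, an imprinted adaptor that dampens insulin and IGF1 receptors, averaged 14.9 ± 1.53 FPKM in CTGF-/- and 18.2 ± 2.08 FPKM in WT (difference -0.27), and Cdkn1c, an imprinted cell cycle inhibitor, averaged 20.3 ± 2.11 FPKM in CTGF-/- and 17.2 ± 0.617 FPKM in WT (difference 0.22). Nnat, the most abundant gene of that list, differed by 0.24.

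**Figure D4:**
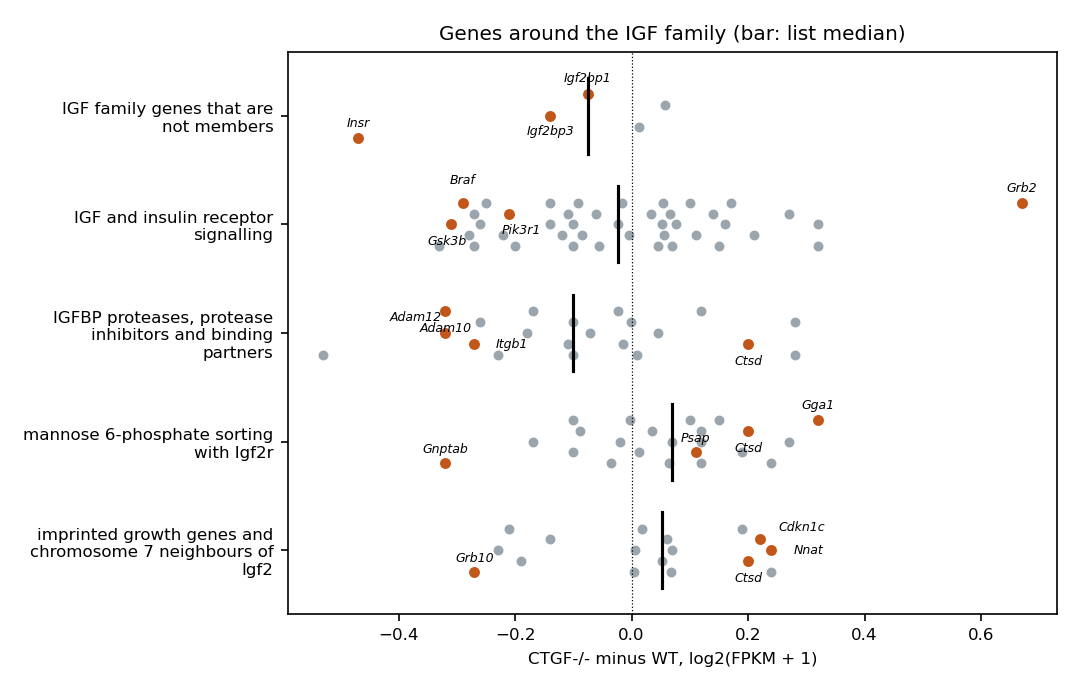
CTGF-/- minus WT difference in log2(FPKM + 1) of each tested gene in 5 lists around the IGF family (points, rows spread vertically for legibility only), with the genes named in the text in orange and the list median as a bar. The medians lie between -0.10 and 0.069, Grb2 at 0.67 is the highest point, and no gene passed an adjusted p of 0.05.

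Markers of the cells that a retina sample could hold were set beside Igf2 and Igfbp7, whose libraries differed most. For lens, which is not retina, all 15 of 15 markers were listed. Their summed level was 633, 332 and 5423 FPKM in CTGF-/- 1, 2 and 3, and 773, 7.11 and 10.8 FPKM in WT 1, 2 and 3. Differences were positive for 15 of 15 lens markers, with a median of 3.76, while 55.1% of all genes had a negative one. None passed an adjusted p of 0.05 in limma, and 10 of 15 had an unadjusted p under 0.05, against 9.32% of all genes. Crybb2, Crygs and Gja3 were listed at 0 in WT 2 and 3. Pigment epithelium markers were listed for 13 of 18 genes (without the defining Rpe65, Best1 and Lrat), and summed to 121 to 131 FPKM in CTGF-/- and 97.4 to 137 FPKM in WT. Rlbp1, also a Mueller glia marker, supplied 60 to 68.2 FPKM of this sum in CTGF-/- and 59 to 70 FPKM in WT. Of the 12 pigment epithelium markers tested 11 had a positive difference, while 55.1% of all genes had a negative one. Dct at 0.42, Pmel at 0.38 and Ttr at 0.38 were the largest, Tyrp1 and Serpinf1 were at 0.025, and Rlbp1, the most abundant, was at -0.019. None passed an adjusted p of 0.05 in limma, and 1 of 12 had an unadjusted p under 0.05, against 9.32% of all genes. The mean level of the 12 markers relative to WT was 0.11 to 0.22 in CTGF-/- and -0.13 to 0.17 in WT, with WT 3 among the CTGF-/- libraries. Fibroblast markers of choroid, sclera and meninges were listed for 6 of 16 genes (without Col1a2, Col3a1, Dcn and Lum), and summed to 9.46 to 15.7 FPKM in CTGF-/- and 11.1 to 17.5 FPKM in WT. The part of these cells in the Igf2 values was not tested.

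WT 3, the library with the most Igfbp7, also had the highest vessel and blood markers. Endothelial markers, listed for 11 of 15 genes, summed to 40 to 43.2 FPKM in CTGF-/- and 49.4 to 58.9 FPKM in WT, the highest in WT 3. Kdr, a VEGF receptor, supplied most of that sum, at 27.3 to 30.6 FPKM in CTGF-/- and 32.3 to 38.5 FPKM in WT. The mean level over the 11 endothelial genes, in which each counts alike, overlapped, at -0.34 to -0.12 in CTGF-/- and -0.27 to 0.30 in WT. Differences were negative for 10 of these 11 genes, with a median of -0.29, while 55.1% of all genes had a negative one. None of the 11 passed an adjusted p of 0.05 in limma, and 2 had an unadjusted p under 0.05, against 9.32% of all genes. Pericyte and smooth muscle markers, listed for 6 of 12, summed to 27.7 to 29.7 FPKM in CTGF-/- and 26.2 to 37.8 FPKM in WT, and erythroid markers, listed for 5 of 8, to 138 to 323 FPKM in CTGF-/- and 94.6 to 612 FPKM in WT, again with WT 3 highest. WT 2, the library with the least Igfbp7, was lowest for pericyte and erythroid markers. The CTGF-/- libraries did not follow this order. CTGF-/- 3, second in Igfbp7 at 13.7 FPKM, had the lowest endothelial sum (40 FPKM) and an erythroid sum of 138 FPKM. CTGF-/- 2, with less Igfbp7 (9.71 FPKM), had an erythroid sum of 323 FPKM. Microglia and macrophage markers, cells known to make IGF1, were listed for 10 of 13 genes and summed to 60.3 to 68.3 FPKM in CTGF-/- and 46.9 to 57.1 FPKM in WT. That sum rests mostly on C1qa, C1qb, C1qc and Tyrobp. Differences were positive for 7 of the 10 microglia genes and negative for Cx3cr1 (-0.13), P2ry12 (-0.31) and Csf1r (-0.0043), and the mean level overlapped, at 0.11 to 0.25 in CTGF-/- and -0.12 to 0.12 in WT. Retinal identity was plain from rod markers, all 13 listed, which summed to 1914 to 2088 FPKM in CTGF-/- and 1414 to 1928 FPKM in WT. Differences were positive for 13 of 13 rod markers and negative for 15 of 15 progenitor and cell cycle markers. Among all genes 55.1% had a negative difference. The part of these cell types in the Igf1, Igfbp3 and Igfbp7 values was not tested.

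**Figure D5:**
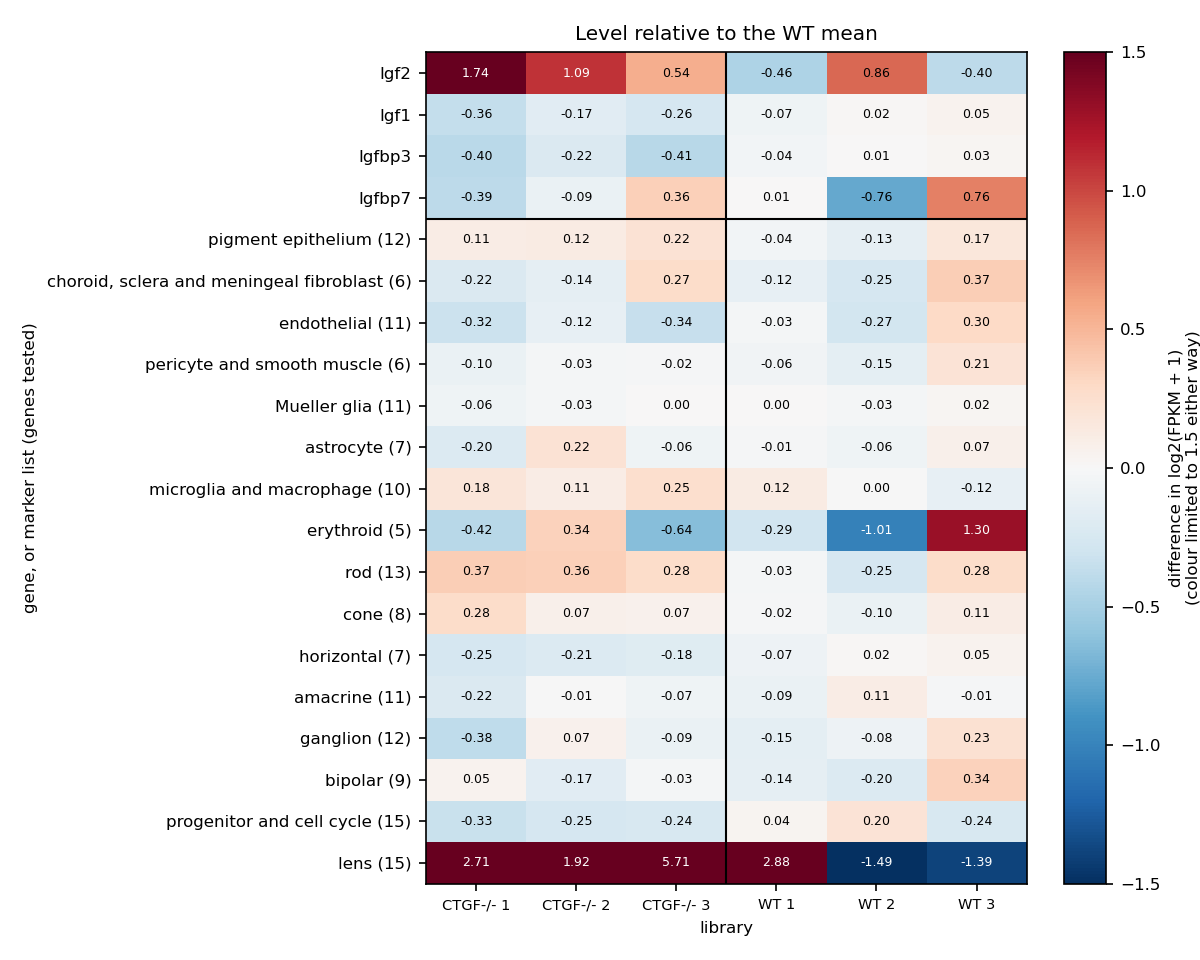
Level of 4 IGF family genes (top) and of marker lists (mean over the tested genes, number in brackets) in each library, as the difference from the WT mean in log2(FPKM + 1), CTGF-/- libraries left of WT libraries, with the colour limited to 1.5. The Igf2 row runs from 1.74 in CTGF-/- 1 to -0.46 in WT 1. Igfbp7 and erythroid markers both peak in WT 3 and are lowest in WT 2, but CTGF-/- 3, second for Igfbp7, has erythroid markers at -0.64.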

How the data were processed

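The members and the gene lists were chosen with earlier results of these data known. Per the submitters' processing notes, reads were checked with FastQC, trimmed with cutadapt, aligned to GRCm38 with HISAT2 and assembled and quantified with StringTie, in versions not given in the sources used here, and per the series' design text FPKM came from Ballgown. The authors deposited FPKM per gene and per transcript. Per the file headers, each deposited table adds mean values of the groups, fold changes (linear and log2), p-values and q-values. The columns of group means, headed FPKM, hold averages of log2(FPKM + 1). From these columns and the authors' short lists, the text uses only how many entries and how many members the lists hold. Read numbers are not in the tables, so depth is unknown, no interval is given, and an exact 0 is described as listed at 0.

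Differences were computed on log2(FPKM + 1) with limma 3.58.1 in R 4.3.3 (lmFit, eBayes with trend, two-sided, no covariate) over all features that averaged at least 0.5 FPKM in the 6 libraries, with Benjamini-Hochberg adjustment over all of them and a threshold of 0.05. The script was tested on simulated data. Sums, ratios and transcript shares carry no test, because the members were chosen on the same values; a permutation test planned for them is left out for that reason. The text names the 9 genes, their transcripts with a mean share of at least 10% or a mean of at least 1 FPKM, the 3 genes of each list with the smallest unadjusted p and its most abundant gene, and for Igf2 the 5 most and 3 least alike genes. The other transcripts and the marker genes in the text were picked with their values in view. Transcript structures come from GENCODE M21, in which all 15 transcripts matched, and promoter windows from RefSeq, which held 13 for the 9 genes. Alternatives were other pseudocounts, filters, scalings and variance models, a replicate block and leaving out each library.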

Additional observations from a re-analysis of the deposited data

How the results depend on the processing

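None of the list genes passed an adjusted p of 0.05 in limma under any setting run. Of 12915 genes 6 passed, against 1 without variance moderation and 2 with the replicate block. Of 25082 transcripts 6 passed, against 1 with a pseudocount of 0.01, 2 without moderation and 0 with the replicate block. Leaving out 1 library at a time gave 2 to 9 genes and 1 to 7 transcripts past the threshold, and 598 to 1428 genes and 848 to 1754 transcripts at an unadjusted p under 0.05, against 1204 and 1267 with all libraries. Without a library, Igf2 differed by 0.81 to 1.55, Igf1 by -0.31 to -0.21, Igfbp3 by -0.40 to -0.31, Igfbp5 by -0.29 to 0.005, and the summed binding proteins by -8.2 to 2.86 FPKM (-2.07 with all). Under the other settings Igf2 differed by 1.05 to 1.24 and Igf1 by -0.35 to -0.22. Igf2bp1 (-0.075) ran from -0.17 without WT 3 to 0.024 without WT 2, and Psap to -0.02 after quantile normalisation. The cause of these changes was not tested.

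The titles give both groups the numbers 1, 2 and 3. Same-numbered libraries deviated together with correlations of 0.0129, 0.171 and -0.156 across genes, within the range of differently numbered ones (-0.305 to 0.371). These values give no sign of a pairing by number, but with 3 libraries per group they cannot exclude one. With every number in both groups, the replicate block cannot move a difference of means, only its error, so that Igf2 stays at 1.12 shows nothing. Depth is unknown, which limits what can be said of Igfbp3 and the rarer transcripts.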

Other observations

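Among 11934 genes with a mean of at least 1 FPKM, Igf2 was compared with every other gene by the Pearson correlation of log2(FPKM + 1) over the 6 libraries, as a description. The most alike were Cdc16 (0.992), Thoc5 (0.992), Mtcl1 (0.989), Tctn3 (0.955) and Ptges (0.948), and 33 genes reached 0.9. Cdc16, a subunit of the anaphase-promoting complex, varied only from 32.2 to 34.7 FPKM over the libraries, so likeness in order does not mean a like size of change. By Spearman's rank correlation 3 of these 5, Thoc5, Mtcl1 and Tctn3, put the 6 libraries in the same order as Igf2, as did 4 genes in all. The most opposed were Pard6g (-0.986), Ptdss1 (-0.97) and Btbd6 (-0.961), of which Ptdss1, an enzyme that makes phosphatidylserine, read 7.11, 7.68 and 8.37 FPKM in CTGF-/- 1, 2 and 3 and 12.5, 8.38 and 11.7 FPKM in WT 1, 2 and 3. With 6 libraries and this many genes, such values say nothing of shared control.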
